A study of Rattus norvegicus with 15 samples.

Results

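The genes described here are those of the neurofilaments and of the filament proteins related to them, taken as every probe that the platform annotation names Nefl, Nefm, Nefh, Ina, Prph, Vim or Nes. All 7 genes had a probe. Nefl had 2 probes, 27F06 and 52A12, and each of the other genes had 1, so that there were 8 probes of 7 genes among 5088 probes and 4153 named genes. The cells were dissociated from L4 and L5 dorsal root ganglia (DRG) of juvenile rats and treated with 1.5 mM dibutyryl cAMP (dbcAMP), a form of cAMP that enters cells, for 1, 3, 6, 12 or 18 h, or kept in medium alone. At each of the 5 times 3 arrays compared treated with control RNA, in Cy5 and Cy3, and no array had the dyes exchanged. Poly-L-lysine and myelin both appear in the labels as coatings, with none tied to an array, and the protocol lists 0 h where the first group is labelled 1 h. Whether the 3 arrays of a time stem from separate cultures is not stated. The p-values therefore measure only how the arrays vary, which may be technical.

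Intermediate filaments are ropes of coiled-coil proteins that give cells mechanical strength. In neurons Nefl, the light neurofilament subunit, forms the core with the medium and heavy subunits Nefm and Nefh, whose long tails project from the filament and help to set the calibre of axons. Ina (alpha-internexin) and Prph (peripherin, typical of peripheral neurons) join the same filaments. Vim (vimentin) is the filament protein of fibroblasts, glia and other nonneuronal cells, and Nes (nestin) that of neural progenitors, with Schwann cells among the other cells that can make it. Neurofilament mRNAs are known to fall in DRG neurons whose peripheral axon has been cut, and protein kinase A, the kinase that cAMP activates, phosphorylates the head domains of Nefl and Vim.

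Values are the log2 of the deposited ratio of treated over control RNA, so that 0 is no difference, 1 is a doubling and values below 0 are lower in treated cells. A probe was called changed when its mean differed from 0 by the test of limma with a p-value, adjusted over all probes by the method of Benjamini and Hochberg, under 0.05. Ratios hold no level, so the cells could not be checked against the levels of their defining markers, and in a mixed culture fewer cells of a type and less RNA per cell cannot be told apart. Between 28 and 105 probes per array had no ratio, none of them probes of these genes, and array medians of the ratio were 0.997 to 1.02. Spread was uneven, with an SD of all log2 values between 0.357 and 0.434 on 9 arrays and between 0.627 and 0.703 on array 3 of 6 h, arrays 1 and 2 of 12 h and all 3 arrays of 18 h.

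Vim and Nes were called lower in treated than in control cells from 6 h on. Of the Nefl probes 1 was called higher at 12 h and 18 h, without a called difference from 1 h. No probe of Nefm, Nefh, Ina or Prph was called at any time. At 1 h limma called 0 of the 8 probes, where it called 2.33% of all probes (0.732% higher and 1.60% lower), and at 3 h 0 of the 8, against 2.87% (0.931% higher and 1.94% lower). At each of these times 2 of the 8 had an unadjusted p under 0.05. The share of all probes under that value was not taken, so nothing is read from this count. The methods' test without a shared spread called 0 of all probes at both times, so its 0 of the 8 says nothing about these genes. At 6 h 2 of 8 probes were called, both lower, against 4.19% of all probes (1.84% higher and 2.35% lower). At 12 h 3 of 8 were called, 1 higher and 2 lower, against 8.58% of all probes (3.81% higher and 4.77% lower). At 18 h the same 3 of 8 were called in the same directions, against 22.0% of all probes, 10.6% higher and 11.3% lower. The median over the 8 probes was -0.12 at 18 h, and that over all probes 0.01.

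**Figure D1:**
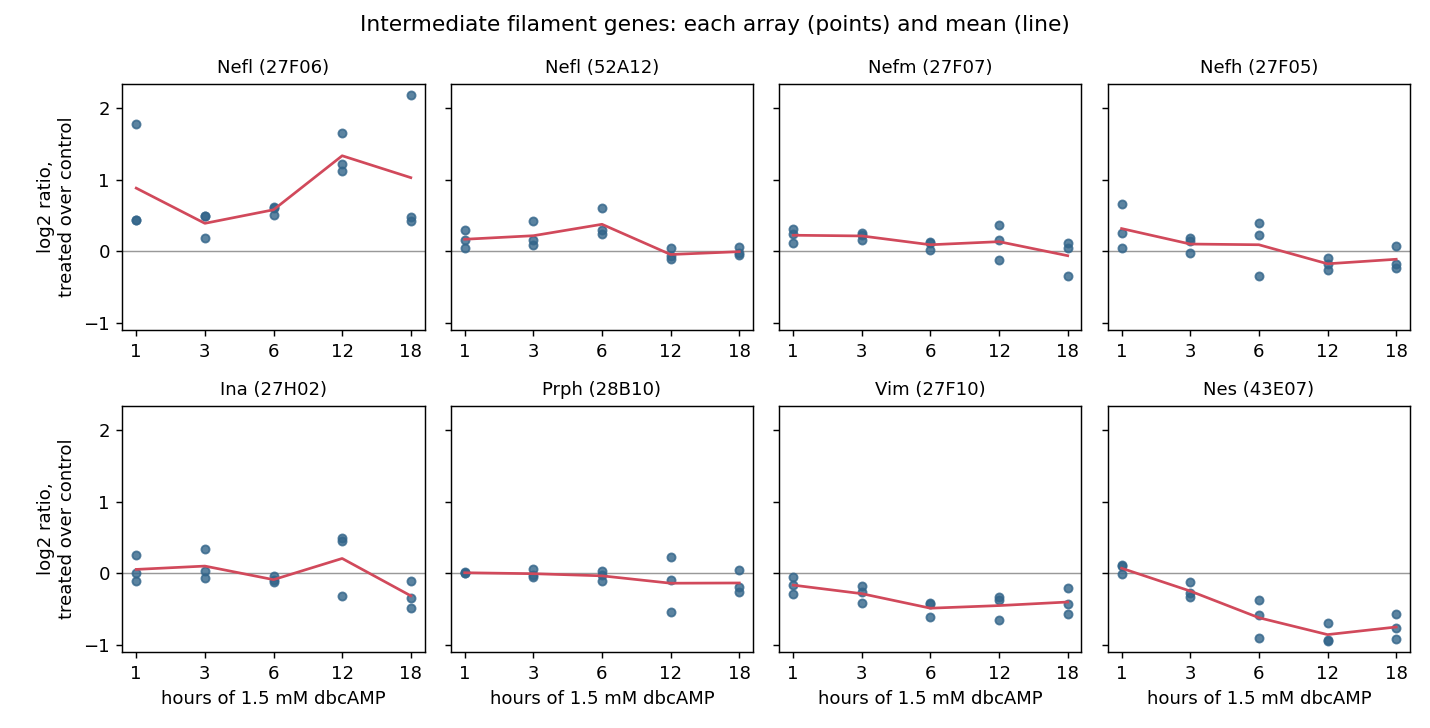
The 8 probes over time, as the log2 of treated over control (vertical) by hours in 1.5 mM dbcAMP (horizontal, the times drawn at even steps). Each point is an array, and the line connects the mean of each time. Vim is below 0 on all 15 arrays, Nes is lowest at 12 h with a mean of -0.86, and the Nefl probe 27F06 is above 0 on all 15 arrays while 52A12 is near 0 at 12 h and 18 h.

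The sequences before the genes of Vim and Nes are shown because these genes were the ones lower in treated cells. Of the 7 genes, 4 (Ina, Nes, Prph and Vim) had an entry in the promoter table of RefSeq, build GRCr8, from 250 bases before to 50 bases after a start site. That of Vim is chr17:81577011-81577310 on the plus strand and that of Nes chr2:175736338-175736637 on the plus strand. Capitals mark matches, on either strand, to the TATA box sequence TATAAA, to the GC box sequence GGGCGG, which Sp1 is known to bind, or to the CCAAT box.
Vim: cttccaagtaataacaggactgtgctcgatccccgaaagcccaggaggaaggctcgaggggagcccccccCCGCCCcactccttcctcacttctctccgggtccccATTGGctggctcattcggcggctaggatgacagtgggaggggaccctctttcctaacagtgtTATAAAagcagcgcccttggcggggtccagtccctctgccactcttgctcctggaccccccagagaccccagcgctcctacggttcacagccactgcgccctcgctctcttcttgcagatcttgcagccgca
Nes: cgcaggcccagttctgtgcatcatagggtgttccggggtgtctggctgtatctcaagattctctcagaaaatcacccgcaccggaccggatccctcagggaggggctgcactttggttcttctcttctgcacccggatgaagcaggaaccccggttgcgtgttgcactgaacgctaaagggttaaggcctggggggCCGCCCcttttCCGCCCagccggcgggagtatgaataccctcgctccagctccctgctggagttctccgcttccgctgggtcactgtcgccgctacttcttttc
The Vim sequence held 1 match each to TATAAA, found in 14.2% of 33469 promoters of 300 bases, to GGGCGG, found in 33.1%, and to CCAAT, found in 37.5%. Its match to TATAAA began 82 bases before the start site of the entry, and the promoter of Prph, which was not called, also held 1. The Nes sequence held 2 matches to GGGCGG. The cAMP response element TGACGTCA, present in 1.83% of all promoters, and its core TGACG, which the full element contains and 21.2% hold, had no match in any of the 4 promoters. These letters are not in these windows, and nothing follows from that about any factor.

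Vim was modestly lower in cells treated with dbcAMP. Its log2 ratios were -0.05, -0.29 and -0.16 on the 3 arrays of 1 h, and -0.42, -0.26 and -0.18 at 3 h. They were -0.42, -0.43 and -0.62 at 6 h, -0.33, -0.65 and -0.38 at 12 h, and -0.21, -0.57 and -0.43 at 18 h. All 15 arrays were below 0, and the arrays of 6, 12 and 18 h overlapped one another. The mean at 6 h was -0.49 ± 0.11 (SD, n = 3 arrays, limma adjusted p = 0.0195), a ratio of 71.3% of control. At 12 h it was -0.45 ± 0.17 (SD, n = 3, limma adjusted p = 0.0183) and at 18 h -0.40 ± 0.18 (SD, n = 3, limma adjusted p = 0.0148), or 73.1% and 75.6% of control. Ranked from the lowest mean at 18 h, the probe of Vim stood at place 822 of 5006 probes, so that many probes were lower.

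The level of Vim in treated relative to control cells was already -0.16 at 1 h (95% interval -0.39 to 0.06, limma adjusted p = 0.736), and the difference between 18 h and 1 h, -0.24, did not pass the test (interval -0.56 to 0.08, limma adjusted p = 0.464). A constant dye bias of the probe would add to every array and cancels only in such a difference. Its part in the values of Vim was not tested. The calls at 6, 12 and 18 h needed the shared spread of all 15 arrays. The limma adjusted p at 18 h was 0.0988 without array 2 and 0.0605 without array 3. It was 0.13 after each array was scaled to the same spread, which put the mean at -0.27. At 12 h it was 0.0536 without array 1, 0.122 without array 2, 0.0362 without array 3 and 0.0505 with scaled arrays. At 6 h it was 0.0611 to 0.135 without any 1 array.

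In the deposited ratios Nes had the lowest means of the 7 genes at 6, 12 and 18 h. Measured from plate medians it was lowest of these times only at 12 h, at -0.49, and Vim was lower at 6 h and 18 h. At 18 h Ina, at -0.36, and Prph, at -0.27, were also lower on that scale than Nes, at -0.22. The deposited log2 ratios of Nes were 0.10, 0.12 and -0.01 at 1 h, and -0.28, -0.34 and -0.13 at 3 h. They reached -0.59, -0.37 and -0.91 at 6 h, -0.70, -0.93 and -0.95 at 12 h, and -0.77, -0.92 and -0.57 at 18 h. The arrays of 6, 12 and 18 h all lay below those of 1 h and 3 h. The mean at 6 h was -0.62 ± 0.27 (SD, n = 3, limma adjusted p = 0.00699), a ratio of 64.9% of control. At 12 h it was -0.86 ± 0.14 (SD, n = 3, limma adjusted p = 0.000625) and at 18 h -0.75 ± 0.18 (SD, n = 3, limma adjusted p = 0.00046), or 55.2% and 59.3% of control.

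Nes was also the gene of this group whose ratio differed between times. Between 18 h and 1 h its log2 ratio differed by -0.82 (standard error 0.16, limma adjusted p = 0.0163), with means of -0.75 at 18 h and 0.07 at 1 h, and that between 12 h and 1 h was -0.93 (standard error 0.16, limma adjusted p = 0.0326). Of the 8 probes 1 was called in each of these comparisons, that of Nes, against 2.74% of all probes between 18 h and 1 h (1.18% higher and 1.56% lower) and 0.300% between 12 h and 1 h (0.140% higher and 0.160% lower). The F test over the 5 times also called 1 of 8, again Nes (limma adjusted p = 0.0296), against 1.87% of all probes. These differences did not pass the test when the arrays of any 1 number were left out. Over all probes limma then called 12 to 20 between 18 h and 1 h, and 0 between 12 h and 1 h.

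The plate that held the probe of Nes moved in the same direction. Probe names begin with the plate of the oligonucleotide, and Nes was on plate 43, whose 96 probes had a median log2 ratio that averaged -0.15 at 1 h, -0.46 at 6 h, -0.37 at 12 h and -0.53 at 18 h. At 18 h 41 of the 96 probes of that plate were called lower and 2 higher. On array 3 of 6 h the plate median was -0.99, and Nes lay at -0.91. Measured from the plate median of each array, Nes was at 0.22 at 1 h, -0.10 at 3 h, -0.16 at 6 h (limma adjusted p = 0.581), -0.49 at 12 h (limma adjusted p = 0.0205) and -0.22 at 18 h (limma adjusted p = 0.195). The difference between 18 h and 1 h was then -0.45 (limma adjusted p = 0.197). Of the calls of Nes against control, only that at 12 h was kept on this scale, and the part of the plate in these values was not tested further.

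Vim stood apart from Nes in this respect. Its plate, 27, had mean medians between 0.00 and 0.11 at the 5 times, with 7 probes called lower and 12 higher of 96 at 18 h. With plate medians subtracted Vim was at -0.51 at 6 h, -0.45 at 12 h and -0.44 at 18 h (limma adjusted p = 0.0218, 0.0263 and 0.0137 at these times), and all 3 calls were kept.

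**Figure D2:**
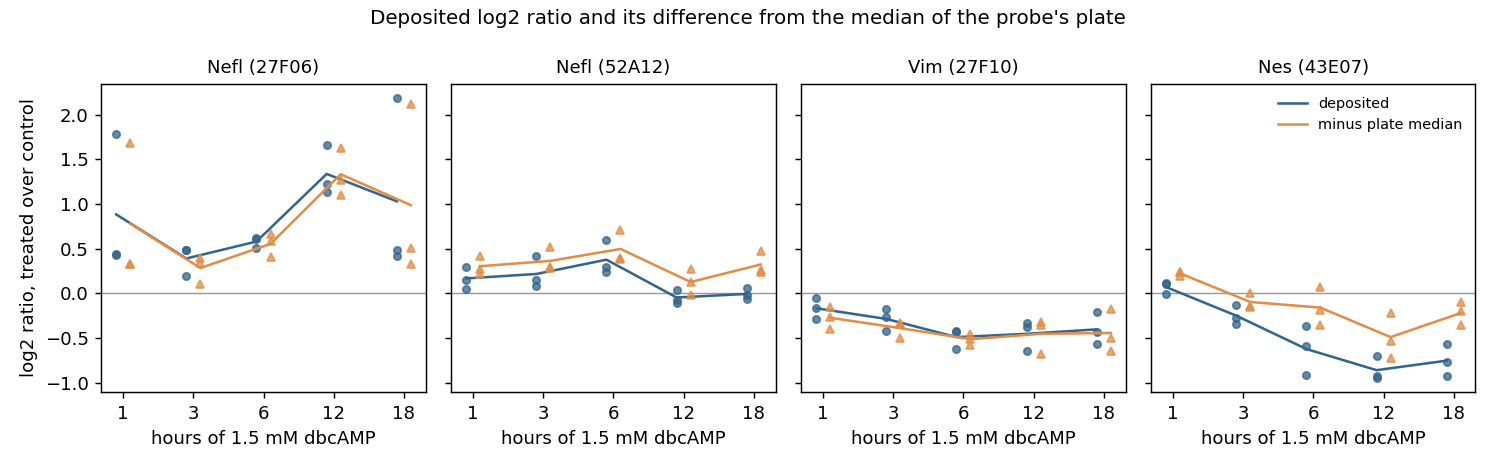
Log2 ratio of treated over control cells as deposited (circles) and after the median of the probe's plate was subtracted on each array (triangles), against hours of 1.5 mM dbcAMP, for both probes of Nefl and for Vim and Nes. Points are arrays and lines join means. The means of Nes at 18 h are -0.75 as deposited and -0.22 with plate medians subtracted, while those of Vim are -0.40 and -0.44.

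The 2 probes of Nefl did not give the same ratio. Probe 27F06 had log2 ratios of 0.43, 1.78 and 0.44 at 1 h, 0.19, 0.49 and 0.49 at 3 h, and 0.51, 0.61 and 0.62 at 6 h. It reached 1.66, 1.13 and 1.22 at 12 h, and was at 0.48, 0.42 and 2.19 at 18 h. All 15 arrays were above 0, with array 2 of 1 h and array 3 of 18 h far above the other arrays of their times. The mean at 12 h was 1.34 ± 0.29 (SD, n = 3, limma adjusted p = 0.016), a ratio of 2.53, and at 18 h it was 1.03 ± 1.00 (SD, n = 3, limma adjusted p = 0.0271). Without array 3 the mean at 18 h was 0.45 and did not pass the test (limma adjusted p = 0.268). At 12 h the adjusted p was 0.122 without array 1 and 0.0514 without array 2, with means of 1.17 and 1.44. The mean at 1 h was already 0.89 (limma adjusted p = 0.237), and 1.16 with a call (limma adjusted p = 0.0393) once arrays were scaled to the same spread. The difference between 18 h and 1 h was 0.14 (interval -0.79 to 1.07, limma adjusted p = 0.912). Between 12 h and 1 h it was 0.45 (interval -0.48 to 1.38, limma adjusted p = 0.829). The F test over the 5 times did not call the probe (limma adjusted p = 0.634). The part of a constant dye bias in its values was not tested.

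Probe 52A12, which the platform annotation gives a RefSeq transcript record of Nefl, had log2 ratios of 0.05, 0.15 and 0.30 at 1 h, 0.42, 0.15 and 0.08 at 3 h, and 0.29, 0.24 and 0.60 at 6 h. They were -0.11, 0.04 and -0.07 at 12 h, and -0.02, -0.06 and 0.06 at 18 h. The arrays were above 0 through 6 h and around 0 after that. The highest mean, 0.38 ± 0.20 at 6 h (SD, n = 3), was short of the threshold (limma adjusted p = 0.0659). At 18 h it was -0.01 (interval -0.23 to 0.22, limma adjusted p = 0.969). Plate 52, which held this probe, had a mean median of -0.33 at 18 h, with 38 of 96 probes called lower and 5 higher. Measured from the plate median, 52A12 was at 0.50 at 6 h (limma adjusted p = 0.0195) and 0.32 at 18 h (limma adjusted p = 0.045). Both probes of Nefl were then called higher at 18 h. On this scale 52A12 was already at 0.30 at 1 h (limma adjusted p = 0.276) and 0.36 at 3 h (limma adjusted p = 0.108). At 12 h it was at 0.13 (limma adjusted p = 0.529). Its difference between 18 h and 1 h was 0.02 (limma adjusted p = 0.966), so no change over time is read from its call at 18 h. The deposited call of the other probe at 18 h was lost without array 3, as given above.

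On the same array 27F06 exceeded 52A12 by 0.72 on average at 1 h, 0.17 at 3 h, 0.21 at 6 h, 1.38 at 12 h and 1.04 at 18 h, a description for which no test was made. At 12 h the gap was 1.78, 1.09 and 1.29 on the 3 arrays, and at 18 h it was 0.50, 0.48 and 2.13, so that the mean at 18 h rested on array 3. The plates of the probes differed in the same direction as the gap. With plate medians subtracted the gap averaged 0.48 at 1 h, -0.08 at 3 h, 0.06 at 6 h, 1.21 at 12 h and 0.66 at 18 h. It was then 1.50, 0.84 and 1.29 at 12 h, and 0.25, 0.10 and 1.64 at 18 h. Over the 15 arrays 27F06 was the higher of the pair on 14 as deposited, by a mean of 0.70 ± 0.70 (SD, n = 15), and on 12 with plate medians subtracted, by a mean of 0.47 ± 0.67 (SD, n = 15). At 12 h 27F06 was thus above 52A12 on all 3 arrays on both scales, and no single value is given for the gene. The sequence record behind 27F06, like those behind the probes of Nefh and Vim, is not a RefSeq record. It could therefore not be found among the RefSeq transcripts of its gene. Which transcripts each oligonucleotide can bind was not tested.

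Nefm, the medium subunit, whose gene neighbours Nefl with no protein-coding gene between them in the RefSeq table, stayed close to control. Its log2 ratios were 0.31, 0.12 and 0.24 at 1 h, 0.23, 0.25 and 0.16 at 3 h, and 0.12, 0.13 and 0.02 at 6 h. They were 0.15, 0.37 and -0.12 at 12 h, and -0.35, 0.04 and 0.12 at 18 h. All 9 arrays up to 6 h were above 0 by small amounts, and at 12 h and 18 h the arrays lay on both sides. The mean at 1 h was 0.22 ± 0.10 (SD, n = 3, limma adjusted p = 0.59) and at 18 h -0.07 ± 0.25 (SD, n = 3, limma adjusted p = 0.723), with an interval of -0.31 to 0.18 at 18 h.

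Nefh, the heavy subunit, had log2 ratios of 0.66, 0.04 and 0.25 at 1 h, 0.19, -0.03 and 0.14 at 3 h, and 0.39, 0.23 and -0.35 at 6 h. It was at -0.09, -0.26 and -0.18 at 12 h, and -0.23, -0.18 and 0.07 at 18 h. The arrays of 1 h were all above 0 and those of 12 h all below it, without overlap between these times. The difference between 12 h and 1 h was -0.49 (interval -0.94 to -0.05), with means of -0.18 at 12 h and 0.32 at 1 h. Its unadjusted p was 0.0309 and its limma adjusted p = 0.526, so it did not pass the test over all probes. Between 18 h and 1 h the difference was -0.43 (interval -0.87 to 0.01, limma adjusted p = 0.314).

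Ina, which coassembles with the neurofilament triplet, was the least even of the neuronal genes at 12 h. Its log2 ratios lay between -0.13 and 0.34 on the 9 arrays of 1, 3 and 6 h, and were 0.49, 0.45 and -0.32 at 12 h, and -0.49, -0.35 and -0.11 at 18 h. At 18 h all 3 arrays were below 0, with a mean of -0.32 ± 0.19 (SD, n = 3), an interval of -0.64 to 0.01 and a limma adjusted p of 0.152.

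Prph, the filament protein of peripheral neurons, stayed within a narrow range through 6 h. On the 9 arrays of 1, 3 and 6 h its log2 ratios lay between -0.11 and 0.06. They were 0.23, -0.55 and -0.10 at 12 h, and -0.26, 0.04 and -0.19 at 18 h, where the arrays were wider and on both sides of 0. The mean at 18 h was -0.13 ± 0.16 (SD, n = 3, limma adjusted p = 0.477), with an interval of -0.40 to 0.13.

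**Figure D3:**
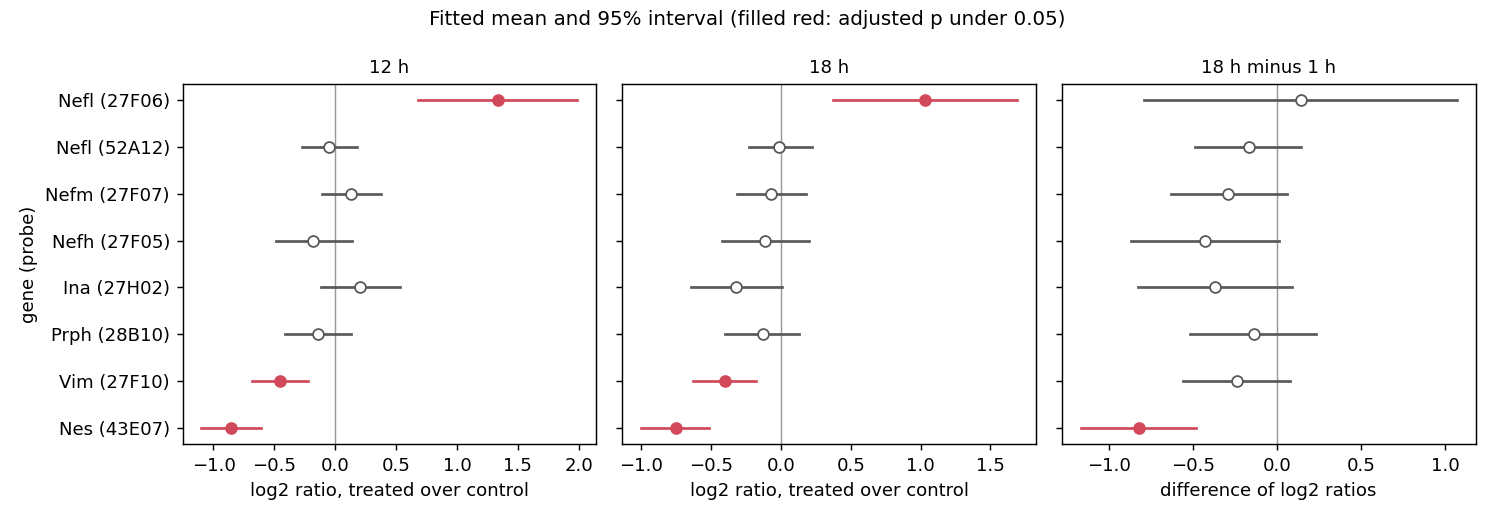
Fitted mean log2 ratio of treated over control cells at 12 h and 18 h, and difference of log2 ratios between 18 h and 1 h (horizontal axes), for the 8 probes, with 95% intervals from the limma fit. Filled red points passed the test. Of Nefm, Nefh, Ina and Prph no interval at 12 h or 18 h leaves out 0, while the difference of Nes between 18 h and 1 h is -0.82.

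The other intermediate filament genes on the arrays were mostly keratins and lamins, and moved in both directions. Of 11 measured genes of 24 listed, 2 rose and 4 fell at 18 h, against 22.0% of all probes called. The median of the genes was -0.21. Krt4 and Krt5, keratins of stratified epithelia, were at -0.79 (limma adjusted p = 0.0033) and -0.74 (limma adjusted p = 0.0162). Krt18, a keratin of simple epithelia, was at 0.64 (limma adjusted p = 0.00354), and Bfsp1, a filament protein of the eye lens, at -0.62 (limma adjusted p = 0.00636). Gfap, the glial relative of Vim, is named here after its value was seen, and was at 0.38 (limma adjusted p = 0.0235). With plate medians subtracted 1 probe of the list was called higher and 4 lower, and Krt5 was at -0.45 (limma adjusted p = 0.113) and Gfap at 0.25 (limma adjusted p = 0.135).

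Of the linkers, microtubule-associated proteins and chaperones that work with filaments, 11 genes of 22 listed were measured, by 16 probes, of which 2 were called higher and 3 lower at 18 h, against 10.6% and 11.3% of all probes. The counts were 2 higher and 2 lower with plate medians subtracted. The median of the genes was 0.03. Cryab, a small heat shock protein that binds Vim and other filaments, was the lowest, at -1.63 (standard error 0.18, limma adjusted p = 3.81e-05), and at -1.10 (limma adjusted p = 0.00067) with the medians of plate 43 subtracted. Hspb1, another small heat shock protein, was at -0.46 by probe 9H02 (limma adjusted p = 0.0198) and -0.39 by probe 52D12 (limma adjusted p = 0.0789), and 52D12 was at -0.06 with plate medians subtracted. Map1a, a microtubule-associated protein, was at 0.54 at 18 h (limma adjusted p = 0.0277) and already at 0.90 at 1 h. Of Map1b, probe 31C04 was at 1.62 (limma adjusted p = 8.09e-06) and probe 31C10 at -0.48 (limma adjusted p = 0.23).

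Of 36 kinases and phosphatases that act on neurofilament proteins, or their subunits, 28 were measured, by 31 probes. At 18 h 0 of the 31 probes were called higher and 1 was called lower by limma, against 22.0% of all probes called, and the median of the genes was 0.01. The probe called lower was that of Prkacb, a catalytic subunit of protein kinase A, at -0.69 (limma adjusted p = 0.0198), or -0.31 (limma adjusted p = 0.293) with plate medians subtracted. Prkaca, the other catalytic subunit listed, was at 0.44 at 12 h (limma adjusted p = 0.0439) and 0.02 at 18 h, and at 0.41 at 12 h with plate medians subtracted (limma adjusted p = 0.0735). On that scale other probes of the list were called at 18 h, 52B10 of Rock1, a kinase of Vim and Nefl, at 0.61 (limma adjusted p = 0.00653) and that of Ppp2r1a, a phosphatase subunit, at -0.48 (limma adjusted p = 0.0386), both named after their values were seen. The other probe of Rock1, 31C07, was at 0.04 on that scale and 0.03 as deposited. As deposited 52B10 was at 0.28 (limma adjusted p = 0.167) and Ppp2r1a at -0.25 (limma adjusted p = 0.24). Gsk3a, a kinase of the neurofilament tails, was at 0.67 at 12 h (limma adjusted p = 0.0235) and 0.46 at 18 h (limma adjusted p = 0.0617).

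Markers of the cell types that a DRG culture can hold are given beside these genes, since Vim is made by nonneuronal cells and the neurofilament genes by neurons. The counts stand against 22.0% of all probes called at 18 h, 10.6% higher and 11.3% lower. Of 15 probes of 12 fibroblast markers 1 was called higher and 5 lower at 18 h, the median of the genes was -0.29, and the medians of the 3 arrays lay between -0.34 and -0.17. S100a4, a calcium-binding protein of fibroblasts and other cells, was at -1.26 and -1.22 by its 2 probes, Col1a1, a collagen chain, at -0.53 by probe 33G03 and -0.14 by probe 32D04, Dcn, a matrix proteoglycan, at -0.42, and Acta2, smooth muscle actin, at -0.52 by probe 44F08 and -0.26 by probe 44F05. The marker called higher was Pdgfra, a growth factor receptor, named after its value was seen, at 0.85 (limma adjusted p = 0.0173). With plate medians subtracted 1 fibroblast probe was called higher, that of Pdgfra, and 3 lower, and the calls of Dcn and Acta2 were lost. Of 18 probes of Schwann cell and satellite glia markers 3 were called higher and 4 lower, with a median over the genes of 0.03 and medians of the arrays between -0.14 and -0.04. Among them Kcnj10, a potassium channel of satellite glia, was at 0.75, Gjb1, a gap junction protein of myelin, at 0.73, Egr2, a transcription factor of myelination, at 0.60, and Cnp, a myelin enzyme, at -0.65. The other probes called lower, named after their values were seen, were both of Ngfr, at -0.43 and -0.83, and 52D05 of S100b, at -0.36. Probe 35H08 of S100b was at -0.17. With plate medians subtracted the counts were 3 higher and 3 lower, and 52D05 was at -0.03 (limma adjusted p = 0.864). Of 19 probes of sensory neuron markers 2 were called higher and 4 lower, with a median over the genes of -0.08 and medians of the arrays between -0.15 and -0.01. The named ones were Uchl1, a ubiquitin hydrolase abundant in neurons, at -0.84, Ntrk2, a neurotrophin receptor, at -0.63, Gap43, a growth cone protein, at -0.59, and Stmn2, a regulator of microtubules, at -0.51, or 0.02 with the medians of plate 43 subtracted. The markers called higher, named after their values were seen, were Elavl4, an RNA-binding protein of neurons, at 0.45, and Scn11a, a sodium channel of nociceptors, at 0.30. Once plate medians were subtracted, limma called 0 neuron probes higher and 4 lower, Stmn2 not among them, with Elavl4 at 0.22 (limma adjusted p = 0.362) and Scn11a at 0.17 (limma adjusted p = 0.214). Of 8 macrophage probes 1 was called higher and 1 lower, with a median over the genes of -0.03. They were C1qb, a complement subunit, at 0.74, and Lyz2, a lysozyme, at -0.56. After subtraction of plate medians C1qb was at 0.72 and kept its call, and Lyz2 was at -0.27 (limma adjusted p = 0.332). The part of any of these cell types in the ratios of Vim, Nes or Nefl was not tested.

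**Figure D4:**
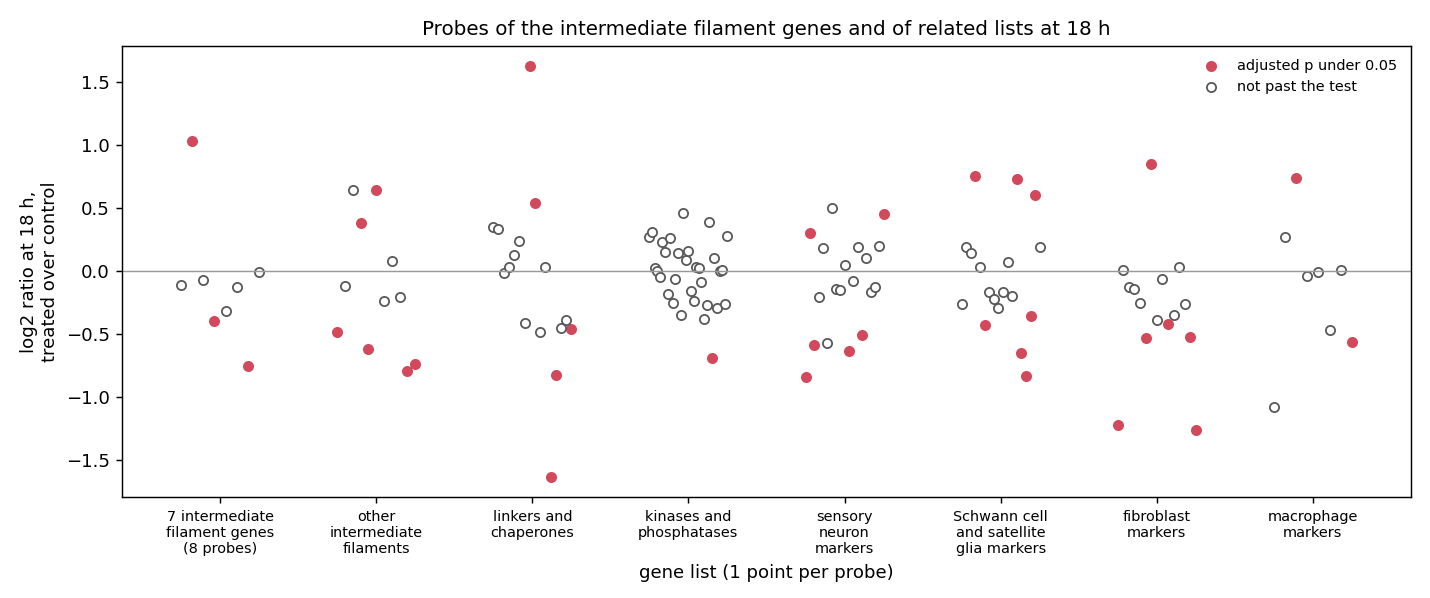
Probes at 18 h, as the log2 of treated over control (vertical axis), for each probe of the 7 intermediate filament genes, of related gene lists and of cell type markers (horizontal axis). Filled points passed the test and open points did not. Fibroblast markers have 5 probes called lower and 1 higher, and the kinases and phosphatases 1 lower and none higher.

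The genes whose ratios followed the called probes most closely over the 15 arrays were named by Pearson's r among 4271 named probes, or 4270 for Nefl, with a ratio on every array. This is a description without a test, and the wider arrays weigh most in it. For Nes these were Np4 (r = 0.900), Tmprss11d (r = 0.855) and Fez2 (r = 0.823), and with plate medians subtracted Basp1 (probe 52H06, r = 0.805), Edn3 (r = 0.800) and Adrb3 (r = 0.796). No probe was named on both scales for Nes. For Vim they were Exoc3 (r = 0.811), Cript (r = 0.793) and Epb41l3 (r = 0.778), with means of 0.16, -0.44 and 0.21 at 18 h. With plate medians subtracted the closest were Cript (r = 0.861) and the Gapdh probes 7A01 (r = 0.803) and 18A01 (r = 0.777). These Gapdh probes had deposited means of 0.04 and 0.13 at 18 h. For the Nefl probe 27F06 they were Ppp4c (r = 0.800), Arnt (r = 0.793) and Cox6a1 (r = 0.791), with means of 0.60, 0.86 and 0.10 at 18 h.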

How the data were processed

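The authors deposited 1 linear ratio of treated (Cy5) over control (Cy3) RNA for each probe and array of spotted oligonucleotides. How these ratios were background-corrected, normalized or filtered is not given in the sources used here, and scanner intensities were not used here. Probes were named through the platform annotation. Of 5088 probes 4423 had 1 symbol, 2 had several and 663 had none, and 4375 matched the GRCr8 gene table by gene identifier, all with the same symbol. The log2 of the ratio was fitted with limma (version 3.58.1, under R 4.3.3), estimating a mean for every time, with all 15 arrays sharing the estimate of spread (lmFit and eBayes, two-sided). A probe needed ratios on 2 arrays of a time or more, and p-values were adjusted over all probes tested. The fit was also run on simulated data, in which a probe had the same spread on every array and no effect of plate or dye. That run cannot show how the fit behaves with the uneven arrays and plates seen here. Intervals are 95% and come from the fit.

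Each probe had its own test, and probes of a gene were averaged only for medians of lists. From the lists, up to 4 genes called at 12 h or 18 h with the smallest p at 18 h were named, and a few others were added after their values were seen, as stated beside them. Members, lists and tests were chosen with earlier results of these data known. Alternatives were centring, scaling, subtraction of plate medians (plates of 96 probes), other arrays in the fit, a replicate block, array weights, complete probes, the methods' test and leaving out arrays. The number of arrays limits the precision. Plots used matplotlib 3.10.9.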

Additional observations from a re-analysis of the deposited data

Results flagged for a closer look

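Nes, probe 43E07, was the gene of the group whose ratio of treated over control cells differed between times by a test of the difference itself. It was lower at 18 h than at 1 h by a difference of -0.82 on the log2 scale, and lower at 12 h than at 1 h by a difference of -0.93. The F test over the 5 times gave it a limma adjusted p = 0.0296. With plate medians subtracted the differences were -0.45 (limma adjusted p = 0.197) and -0.71 (limma adjusted p = 0.139).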

How the results depend on the processing

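None of the 10 called values of single probes changed sign in 108 repeats, of which 59 kept the call and 49 did not. The number of the 8 probes called, 0 at 1 h and 0 at 3 h, became 1 and 1 after scaling each array to the same spread and 1 and 2 with array weights. At 6 h it was 2, at 12 h 3 and at 18 h 3. It was 0 at each of these times with the arrays of the time alone and by the methods' test. Over all probes, the arrays of the time alone gave 10 calls at 6 h, 5 at 12 h and 183 at 18 h. The main fit gave 212, 430 and 1101. The methods' test gave 0, 0 and 1 over all probes, so its counts say nothing about these genes. At 18 h it was 1 with scaled arrays, and with array weights it was 1 at 12 h and 1 at 18 h. Leaving out 1 array gave 0 to 1 at 6 h, 1 to 3 at 12 h and 1 to 3 at 18 h. The count of 1 between 18 h and 1 h and of 1 between 12 h and 1 h became 0 with scaled arrays, with plate medians subtracted, with the arrays of those times alone and without any 1 array number (0 to 0). Between 12 h and 1 h scaled arrays, or leaving out any 1 number, gave 0 calls over all probes. Between 18 h and 1 h calls over all probes went from 137 to 11 with scaled arrays and to 12 to 20 without 1 number. The losses with scaled arrays and without 1 number were thus not particular to Nes. Plate medians differed in this. With them subtracted, limma still called 105 probes between 18 h and 1 h and 14 between 12 h and 1 h. The main fit called 137 and 15, so most calls stayed in number while those of Nes were lost. The count of 1 in the F test became 0 with scaled arrays, with plate medians subtracted and without any 1 array number (0 to 0). The replicate block gave 0 between 12 h and 1 h (adjusted p of Nes 0.0815) and 0 in the F test, and changed no other count. Same-numbered arrays did not deviate together (r from -0.06 to 0.06 over 30 pairs). An effect shared by treated and control RNA cancels in a ratio, so this cannot show whether same-numbered arrays share a culture. With plate medians subtracted the Nefl probe 52A12 turned to 0.32 at 18 h and was called. Its difference between 18 h and 1 h was then 0.02 (limma adjusted p = 0.966). For the 46 values not called, 6 more of the 492 repeats gave a call in the same direction, and 27 changed sign without a call. Causes were not tested. Depth over background is unknown, since no intensities were used.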

Other observations

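Over the 15 arrays the log2 ratios of Nes correlated with those of Nefh at r = 0.75 and with those of Vim at r = 0.73, and the ratios of Nefm with those of Ina at r = 0.66, while the probes of Nefl correlated with each other at r = -0.38. These pairs were picked from 28 after their values were seen and share arrays and, for some, a plate, and no test was made.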
